A study of Mus musculus with 7 samples.

Results

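The genes described here are 10 transcripts that mark hepatic stellate cells or take part in liver fibrosis: Lrat, Reln, Ecm1, Des, Pdgfrb, Dcn, Acta2, Timp1, Tgfb1 and Hgf. They were taken by gene name from a table of 54532 genes, in which each name occurred once. Liver RNA came from old C57BL/6 mice, 3 libraries from animals kept on a standard diet after MDL-800 supplementation and 4 from control animals on a standard diet. The compound MDL-800 activates SIRT6, a nuclear deacetylase. The labels used here give no dose, duration, exact age or sex. They do not say that the libraries are 1 animal each, so a p-value here covers only library-to-library spread, which may be technical. The liver was lysed whole, so the values average over all of its cells, and fewer cells of a type cannot be told apart from less RNA per cell.

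Stellate cells lie between hepatocytes and the sinusoidal endothelium and store vitamin A as retinyl esters. After injury they can turn into myofibroblasts, which contract and lay down collagen. TGF-beta drives that change and PDGF drives their division, TIMP proteins slow the breakdown of matrix, and HGF from stellate cells acts on hepatocytes.

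Promoter sequences of Lrat, Reln and Ecm1 are shown first because these genes had their lowest values in the same library, control 4, together with Dcn and Hgf. The RefSeq promoter table (GRCm38.p6) held 8 of the 10 genes. The 250 bases before the RefSeq start of each of the 3 are given 5′ to 3′ on the gene's strand, and capitals mark matches to 4 motifs searched on both strands.
Lrat, chr3:82903975-82904224, minus strand: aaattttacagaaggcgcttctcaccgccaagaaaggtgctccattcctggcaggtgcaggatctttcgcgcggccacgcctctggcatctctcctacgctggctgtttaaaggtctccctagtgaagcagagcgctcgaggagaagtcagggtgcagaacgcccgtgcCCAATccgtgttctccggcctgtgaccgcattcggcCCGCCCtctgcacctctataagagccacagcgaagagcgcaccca
Reln, chr5:22344706-22344955, minus strand: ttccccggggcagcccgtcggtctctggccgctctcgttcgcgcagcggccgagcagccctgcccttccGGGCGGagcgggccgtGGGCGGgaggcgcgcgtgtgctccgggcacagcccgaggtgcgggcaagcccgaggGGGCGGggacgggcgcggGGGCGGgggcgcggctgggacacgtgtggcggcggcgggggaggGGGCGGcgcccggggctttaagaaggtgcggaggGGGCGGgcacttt
Ecm1, chr3:95739570-95739819, minus strand: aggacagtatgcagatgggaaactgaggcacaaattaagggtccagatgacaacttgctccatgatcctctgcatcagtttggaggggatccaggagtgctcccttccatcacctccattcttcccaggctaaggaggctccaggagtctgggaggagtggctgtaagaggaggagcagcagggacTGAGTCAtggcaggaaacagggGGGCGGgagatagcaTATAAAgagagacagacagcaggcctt
The motifs were the GC box GGGCGG, the CCAAT box CCAAT, the TATA box TATAAA and the AP-1 site TGANTCA, and no motif overlapped another. Of 32817 promoter windows of the same length, 32.7% held a GC box, 33.8% a CCAAT box, 12.4% a TATA box and 6.75% an AP-1 site. The Reln window held 6 GC boxes and was 80.0% G and C. The Lrat window held 1 GC box and 1 CCAAT box, and was 59.2% G and C. The Ecm1 window, at 54.0% G and C, held 1 TATA box, 1 GC box and 1 AP-1 site. These are matches of letters and were not measured as bound sites, and the 3 windows had in common only a GC box. The other genes with a promoter entry held 0 (Hgf and Acta2), 1 (Timp1), 2 (Des) and 5 (Tgfb1) GC boxes. Of these, Hgf was also lowest in control 4. Timp1 and Tgfb1 were not low there, at 112% and 106% of the median of the other 6 libraries. A GC box was thus not particular to the genes low in control 4.

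Values are FPKM, reads scaled by gene length and library size, as deposited. Whole reads recovered from them summed to 17600066 to 19920469 per library. Control 1 and MDL-800 2 held 2173 and 3514 reads of 4 Y-linked genes, and the other 5 libraries held 0. Of those 5, control 3 also held 0 reads of Xist, which the other 4 held at 15495 to 21104 reads, so these 5 were not alike in their sex-linked transcripts. Control 1 and MDL-800 2 also stood apart over all genes tested, at -49.7 and -49.9 on a first principal component that held 49.6% of the variance, with the other 5 between 12.8 and 39.1. Differences are given on the log2(FPKM + 1) scale, MDL-800 minus control, which understates changes of low genes. They were tested with limma across the 11394 genes that averaged 1 FPKM or more, with Benjamini-Hochberg adjustment over all of them.

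None of the 10 genes differed between MDL-800 and control livers beyond the spread between libraries, and the 2 groups overlapped for each of them. Lrat, Ecm1 and Dcn had the largest differences in the higher direction, 0.73, 0.66 and 0.44, and Tgfb1 the largest in the lower direction, -0.52. Of the 9 genes tested, 6 lay above 0 and 3 below, with a median of 0.14, beside 54.2% above 0 and a median of 0.02 over all genes tested. By limma, 0 of the 9 passed at an adjusted p under 0.05 and 0 had an unadjusted p under 0.05, where 0% and 4.85% of all genes did (3.23% higher and 1.62% lower). Groups did not overlap for 6.45% of all genes (4.03% with MDL-800 higher and 2.42% with MDL-800 lower), and for 0 of the 9. Without control 4 the median of the 9 was -0.0085, with 3 above 0.

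**Figure D1:**
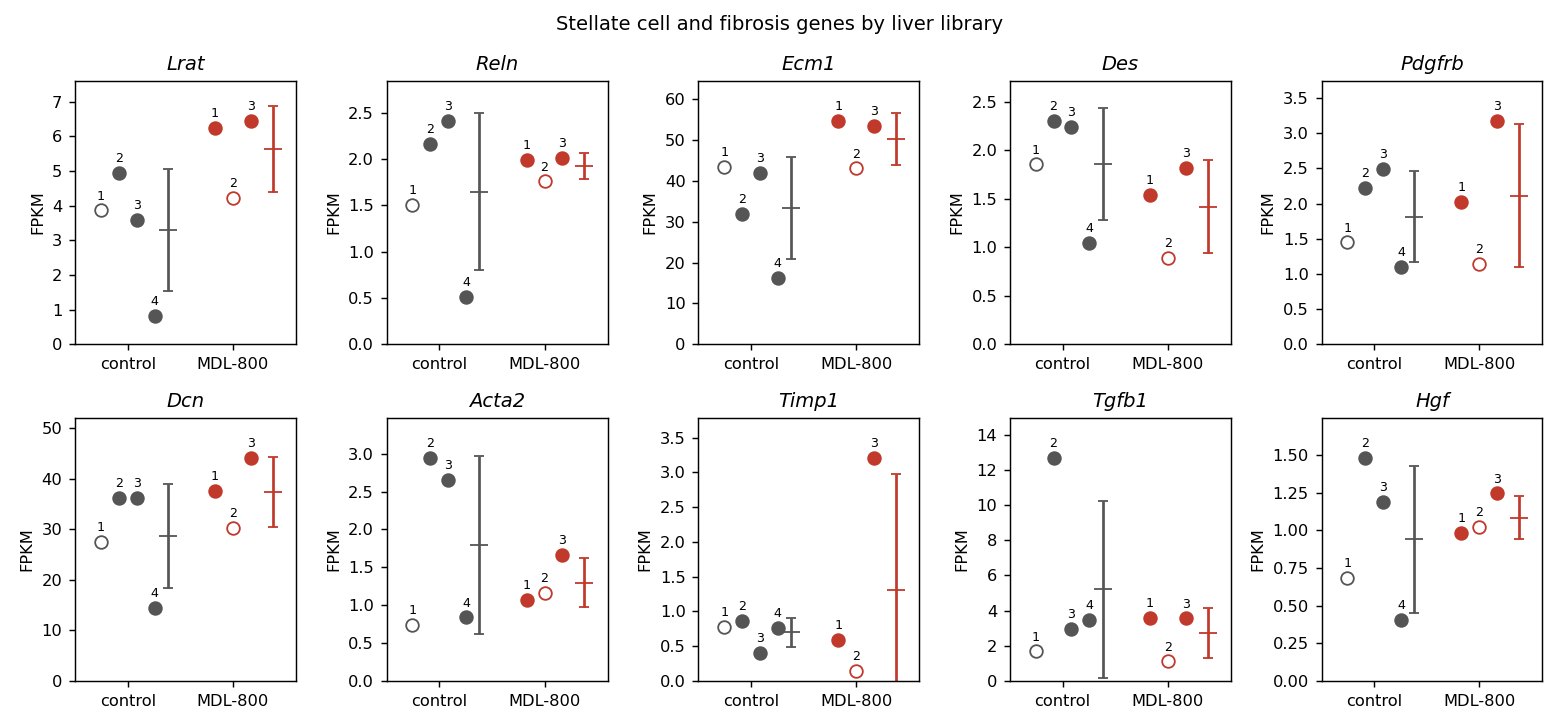
FPKM of each gene in the 4 control (grey) and 3 MDL-800 (red) libraries, numbered by replicate, with the mean and SD beside them; open circles are the 2 libraries with Y-linked reads, and the Timp1 error bar is cut at 0. Control 4 is the lowest library for Lrat, Reln, Ecm1, Pdgfrb, Dcn and Hgf, control 2 stands at 12.7 FPKM for Tgfb1, and MDL-800 3 at 3.21 FPKM for Timp1.

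Lrat, the enzyme that esterifies retinol for storage (chromosome 3, 82892579 to 82903973, GRCm38, minus strand), was at 3.87, 4.95, 3.59 and 0.824 FPKM in controls 1 to 4 and at 6.25, 4.22 and 6.44 FPKM in MDL-800 1 to 3. MDL-800 1 and MDL-800 3 lay above every control, MDL-800 2 lay within the control range, and control 4 lay far below the other 6. MDL-800 livers averaged 5.64 ± 1.23 FPKM (SD, n = 3), and control livers 3.31 ± 1.76 FPKM (SD, n = 4). The log2 fold change was 0.73 with a 95% interval from -0.21 to 1.68 (limma adjusted p = 0.95, exact two-sided permutation p = 0.143 over 35 assignments, where the smallest possible is 0.0286). Without control 4 the difference was 0.36.

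Ecm1, a secreted matrix protein that keeps TGF-beta in its latent form in liver (chromosome 3, 95734147 to 95739569, minus strand), was the most abundant of the 10 per length. It was at 43.5, 32.0, 42.0 and 16.3 FPKM in controls 1 to 4 and at 54.6, 43.0 and 53.4 FPKM in MDL-800 1 to 3. The order was like that of Lrat: MDL-800 1 and MDL-800 3 were the highest libraries, MDL-800 2 fell just under control 1, and control 4 was the lowest. Its log2 fold change was 0.66 with an interval from -0.13 to 1.45 (limma adjusted p = 0.95, exact permutation p = 0.143), and 0.36 without control 4. A microRNA gene, Mir7014, lies in an Ecm1 exon and was listed at 0.

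Reln encodes reelin, a large secreted glycoprotein that stellate cells make in liver (chromosome 5, 21884454 to 22344702, minus strand). It was at 1.50, 2.16, 2.41 and 0.511 FPKM in controls 1 to 4 and at 1.99, 1.76 and 2.01 FPKM in MDL-800 1 to 3. The 3 MDL-800 libraries lay close together, with an SD of 7.33% of their mean, inside the control range, whose SD was 51.4% of its mean. A log2 fold change of 0.21 was measured, with an interval from -0.45 to 0.86 (limma adjusted p = 0.95, exact permutation p = 0.714), and it turned to -0.040 without control 4.

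Dcn, which encodes decorin, a small proteoglycan that binds collagen fibrils and TGF-beta (chromosome 10, 97479609 to 97518143, plus strand), was at 27.6, 36.2, 36.2 and 14.5 FPKM in controls 1 to 4. It was at 37.6, 30.3 and 44.1 FPKM in MDL-800 1 to 3. Again MDL-800 1 and MDL-800 3 were above every control and control 4 was lowest. With 1248 to 4523 reads per library Dcn had the most reads of the 10 genes. MDL-800 minus control was 0.44, with an interval from -0.34 to 1.21 (limma adjusted p = 0.95, exact permutation p = 0.314), and 0.15 without control 4.

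Pdgfrb, the PDGF receptor through which stellate cells are driven to divide (chromosome 18, 61045150 to 61085061, plus strand), was at 1.45, 2.22, 2.49 and 1.10 FPKM in controls 1 to 4. It was at 2.03, 1.14 and 3.17 FPKM in MDL-800 1 to 3. Values were low in the 2 libraries with Y-linked reads and in control 4, and highest in MDL-800 3. The difference was 0.12 with an interval from -0.52 to 0.77 (limma adjusted p = 0.969, exact permutation p = 0.686). Leaving out control 4 gave -0.0085, leaving out MDL-800 3 gave -0.12 and leaving out MDL-800 2 gave 0.37. The summed level of portal fibroblast and mesothelial markers had a similar order. It was 21.4 to 84.9 FPKM in control and 27.1 to 92.7 FPKM in MDL-800, and Gas6 made up most of it. The sum was also low in control 1, MDL-800 2 and control 4 (21.4, 27.1 and 39.0 FPKM) and highest in MDL-800 3. Single markers differed in control 4. There the mesothelial genes Msln, Upk1b, Upk3b and Gpm6a were at their highest (160% to 341% of the median of the other 6 libraries). These genes averaged under 1 FPKM and were not tested. The 3 tested markers, Gas6, Thy1 and Entpd2, were at 44.8%, 95.7% and 118% of that median. Other untested markers went both ways, such as Eln at 53.8% and Pi16 at 187%. Of these 16 markers, Gli1, Pi16 and Clec3b were at 0 in 1 or more libraries.

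Hgf, the growth factor that acts on hepatocytes through the receptor Met (chromosome 5, 16553495 to 16620152, plus strand), was at 0.681, 1.48, 1.19 and 0.406 FPKM in controls 1 to 4 and at 0.983, 1.02 and 1.24 FPKM in MDL-800 1 to 3. As with Reln, the MDL-800 libraries lay inside a wider control range. The log2 fold change was 0.14 with an interval from -0.37 to 0.64 (limma adjusted p = 0.951, exact permutation p = 0.6). It was -0.0072 without control 4 and 0.27 without control 2. Hgf shares 484 exon bases with another listed gene, Gm43489, on the same strand, so its reads are uncertain there.

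Des, the muscle intermediate filament desmin that also marks rodent stellate cells (chromosome 1, 75360329 to 75368579, plus strand), was at 1.85, 2.30, 2.24 and 1.05 FPKM in controls 1 to 4 and at 1.54, 0.891 and 1.82 FPKM in MDL-800 1 to 3. All 3 MDL-800 libraries were below controls 1, 2 and 3, and control 4 lay among them. For Des the log2 fold change was -0.24 with an interval from -0.75 to 0.28 (limma adjusted p = 0.95, exact permutation p = 0.343). It was -0.39 without control 4 and -0.06 in the 5 libraries without Y-linked reads, and -0.07 without MDL-800 2. Des shares 220 exon bases with an antisense gene, Gm15179, which was listed at 0.

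Acta2, the smooth muscle actin that rises when stellate cells become myofibroblasts (chromosome 19, 34241090 to 34255336, minus strand), was at 0.736, 2.94, 2.66 and 0.838 FPKM in controls 1 to 4. It was at 1.07, 1.16 and 1.66 FPKM in MDL-800 1 to 3. Controls 2 and 3 stood above all other libraries, and controls 1 and 4 below all MDL-800 libraries. For Acta2 the log2 fold change was -0.19 with an interval from -0.98 to 0.60 (limma adjusted p = 0.955, exact permutation p = 0.6). It turned to 0.0098 without control 2, was -0.03 without control 3 and -0.38 without control 1, and was -0.34 in the 5 libraries without Y-linked reads. These values rest on 19 to 102 reads per library, and the close paralogs of Acta2 make the assignment of its reads uncertain.

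Acta2 and Des are also made by the smooth muscle of vessel walls. Of 15 smooth muscle markers other than these 2 genes, 4 were abundant enough to test, and their summed level was 16.2 to 20.5 FPKM in control and 17.6 to 20.5 FPKM in MDL-800. Most of that sum was Mylk and Mustn1, which are less specific to that tissue. Of the 4 tested, 3 lay above 0 and 0 passed, with a median of 0.05. Among them Kcnj8 was at 0.23 and Mustn1 at -0.14. Myh11, the smooth muscle myosin, was at 0.286 to 0.511 FPKM in control and 0.221 to 0.288 FPKM in MDL-800. Notch3, a receptor of mural cells, was at 0.129 to 0.300 FPKM in control and 0.108 to 0.120 FPKM in MDL-800, on 14 to 47 reads per library. Its groups did not overlap, as was so for 6.45% of all genes tested, a share that leaves out genes as low as Notch3. Rgs4 and Actg2 averaged 0.590 and 0.183 FPKM in control and 0.320 and 0.0628 FPKM in MDL-800, and their groups overlapped. Tagln, in contrast, averaged 0.109 FPKM in control and 0.275 FPKM in MDL-800. These genes were under the limit of 1 FPKM and were not tested. Cnn1 was at 0 in control 1, Lmod1 in controls 1 and 4, Pln in control 2, Casq2 in control 4 and MDL-800 3, and Cspg4 in control 2 and MDL-800 1. The part of vessel wall cells in the Acta2 and Des values was not tested.

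Timp1, an inhibitor of matrix metalloproteinases that is induced in fibrosis and inflammation (chromosome X, 20870166 to 20874735, plus strand), was under the limit of 1 FPKM, with a mean of 0.964 FPKM. It was at 0.776, 0.868, 0.398 and 0.764 FPKM in controls 1 to 4 and at 0.587, 0.145 and 3.21 FPKM in MDL-800 1 to 3. MDL-800 3 held 50 reads, MDL-800 2 held 2, and the other 5 libraries 5 to 15. Both the highest and the lowest library were therefore MDL-800 libraries. The difference was 0.22, with a 95% interval from -0.79 to 1.23 in a limma fit without the filter and an exact permutation p of 0.8, and it turned to -0.33 without MDL-800 3. Without MDL-800 2 it was 0.61, and in the 5 libraries without Y-linked reads 0.64. Timp1 lies within Syn1 on the opposite strand, sharing no exon bases with it, and the library chemistry does not mark strand.

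Tgfb1, the main profibrotic ligand, which macrophages and platelets as well as stellate cells make (chromosome 7, 25687002 to 25705077, plus strand), was at 1.68, 12.7, 2.97 and 3.47 FPKM in controls 1 to 4 and at 3.57, 1.11 and 3.56 FPKM in MDL-800 1 to 3. Control 2 was above every other library, with 1245 reads against 87 to 315. The lowest values were those of MDL-800 2 and control 1. The log2 fold change was -0.52 with an interval from -1.86 to 0.83 (limma adjusted p = 0.95, exact permutation p = 0.543). Leaving out control 2 brought it to -0.04, leaving out MDL-800 2 to -0.15 and leaving out control 1 to -0.82.

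Markers of other cells moved with Tgfb1. The summed level of 14 macrophage and Kupffer cell markers was 334 to 2794 FPKM in control and 299.75 to 1151 FPKM in MDL-800. Control 2 had the highest sum and MDL-800 2 the lowest, as for Tgfb1. Of these 14 markers, 11 were highest in control 2, as 15.0% of all genes tested were, and none was at 0 in any library. Pf4, a platelet chemokine, was at 43.6 FPKM in control 2 and at 1.52 to 5.06 FPKM in the other 6 libraries, and Pdgfb, a PDGF ligand of platelets and endothelium, at 3.59 FPKM against 0.249 to 0.931 FPKM. The part of macrophages and platelets in the Tgfb1 values was not tested.

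**Figure D2:**
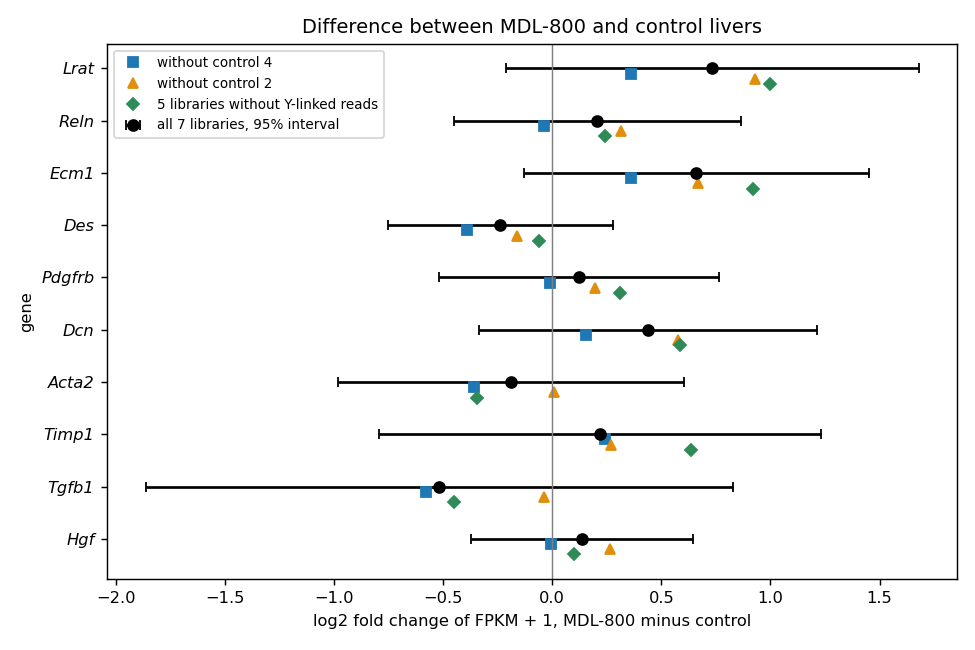
Log2 fold change of FPKM + 1, MDL-800 minus control, for each gene over all 7 libraries with its 95% interval (black), and the value without control 4 (blue), without control 2 (orange) and in the 5 libraries without Y-linked reads (green). Every interval includes 0; without control 4 the values of Reln, Pdgfrb and Hgf fall just under 0, and without control 2 that of Tgfb1 is -0.04 and that of Acta2 0.0098.

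Control 4 was the lowest of the 7 libraries for 6 of the 10 genes, Lrat, Reln, Ecm1, Pdgfrb, Dcn and Hgf. It was the lowest for 18.8% of all genes tested. Relative to the median of the other 6 libraries, control 4 held 18.0% of the level of Lrat, 25.6% of Reln, 36.7% of Hgf, 37.7% of Ecm1 and 40.0% of Dcn. Tgfb1 and Timp1 in control 4 were at 106% and 112% of that median. Control 4 was under 50% of the median of the others for 5 of the 9 genes tested and for 4.05% of all genes tested. When FPKM was recomputed with the summed reads as denominator, control 4 was still the lowest library for Lrat, Reln, Ecm1, Dcn and Hgf, while Pdgfrb was lowest in MDL-800 2.

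Other genes of stellate cells were low in control 4 as well. Of 16 further stellate markers tested, 11 were lowest there, among them Colec11, a collectin, at 7.49 FPKM against 20.5 to 36.0 FPKM in the other 6, and Tcf21, a mesenchymal transcription factor, at 1.13 against 2.88 to 5.05 FPKM. Vim, which rises in activated stellate cells and occurs in other cells too, was not low there (173% of the median of the others). Steap4 and Cxcl12, the most abundant of the list, were at 110% and 103%. The proteoglycans Bgn and Prelp, relatives of decorin, were at 44.8% and 37.5%.

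Markers of sinusoidal endothelial cells moved with the stellate genes in control 4. Of 14 tested, 11 were lowest there, and the summed level of the 15 listed was 26.1 to 74.7 FPKM in control and 53.7 to 70.0 FPKM in MDL-800, with none at 0. Clec4g, an endothelial lectin, was at 2.40 FPKM in control 4 against 11.7 to 14.7 FPKM in the other 6, and Bmp2 at 0.458 against 1.84 to 3.70 FPKM. Of 14 macrophage and Kupffer cell markers 0 were lowest in control 4, with a median of 132% of the other libraries, and hepatocyte markers had a median of 126%. Whether control 4 held fewer cells of these types was not tested.

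**Figure D3:**
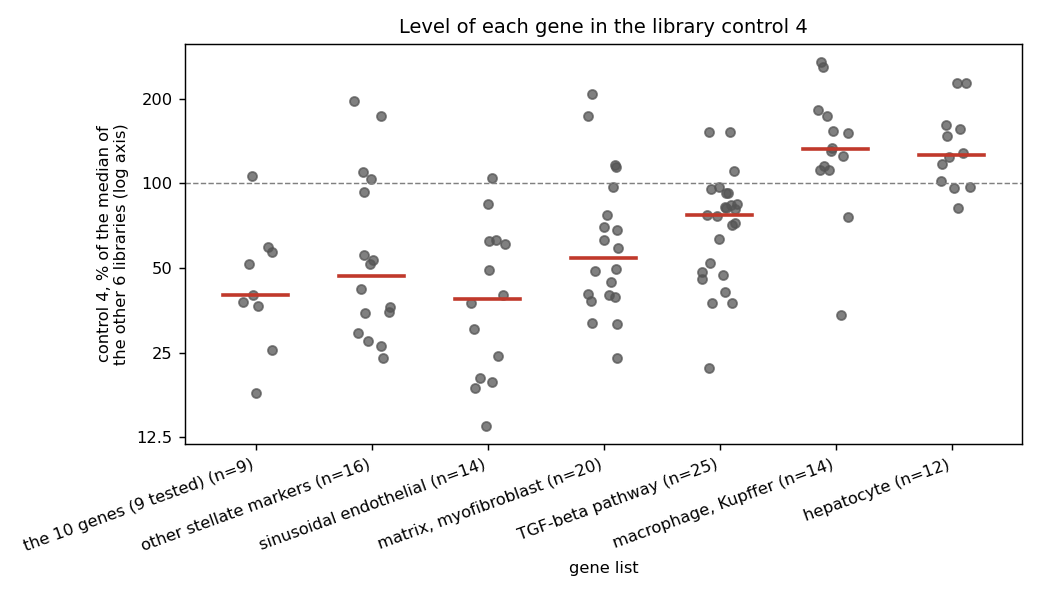
Level of each tested gene in control 4 as a percentage of its median in the other 6 libraries (log axis; points are genes, red lines medians, the dashed line marks 100%). The stellate and fibrosis genes have a median of 40.0%, other stellate markers 46.7% and sinusoidal endothelial markers 38.7%, while macrophage and hepatocyte markers lie mostly above 100%.

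Among the other libraries, control 2 was the highest for Des, Acta2, Tgfb1 and Hgf, and MDL-800 3 for Lrat, Pdgfrb, Dcn and Timp1. Of all genes tested, 15.0% were highest in control 2 and 8.64% in MDL-800 3. MDL-800 2 was the lowest for Des, Timp1 and Tgfb1, and control 1 for Acta2. Of all genes tested, 13.0% were lowest in MDL-800 2 and 12.4% in control 1. In the fit with a term for Y-linked reads, Tgfb1 differed by -1.17 on the log2 scale in the 2 libraries that held them (limma unadjusted p = 0.0456, adjusted p = 0.212), and 0 of the 9 genes passed for that term, while 2.42% of all genes tested did. In the 5 libraries without Y-linked reads, MDL-800 minus control was 0.998 for Lrat, 0.92 for Ecm1, 0.59 for Dcn, 0.31 for Pdgfrb, 0.24 for Reln, 0.10 for Hgf and -0.45 for Tgfb1, and 0 passed limma. When control 4 was left out of these 5 as well, the values were 0.49 for Lrat, 0.55 for Ecm1, 0.17 for Dcn, -0.29 for Des, -0.69 for Acta2, -0.13 for Reln and -0.14 for Hgf.

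**Figure D4:**
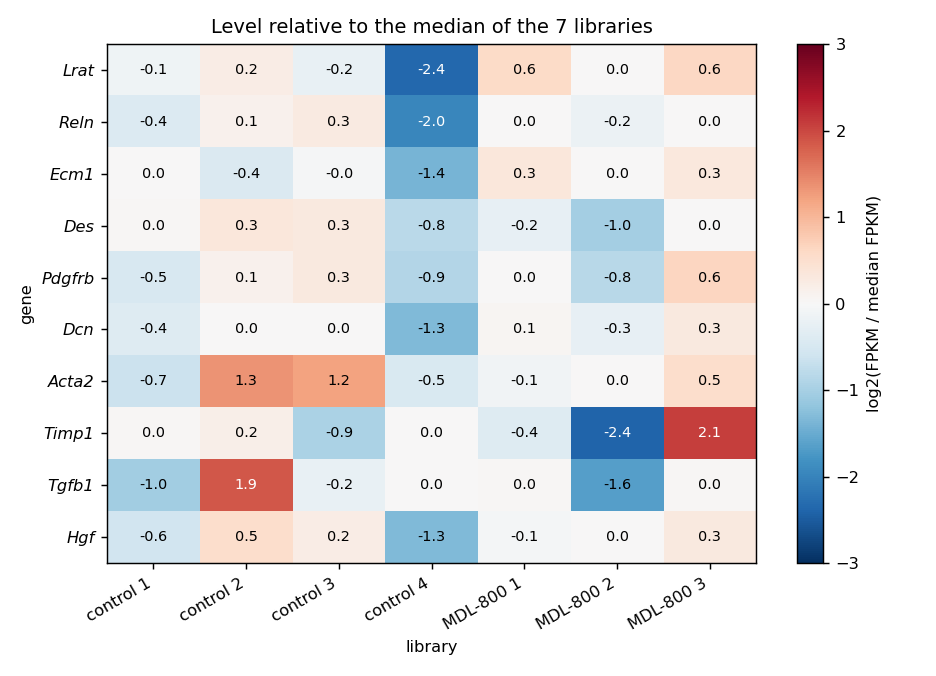
Log2 ratio of each gene's FPKM to its median over the 7 libraries, with libraries in columns and genes in rows (blue lower, red higher). The control 4 column is blue for 8 of the 10 genes, and the darkest red cells are Tgfb1 in control 2 and Timp1 in MDL-800 3.

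Ratios of the genes within a library do not depend on the library's denominator. Des stood at 6.72%, 6.35%, 6.18% and 7.23% of Dcn FPKM in controls 1 to 4 and at 4.10%, 2.94% and 4.13% in MDL-800 1 to 3. All MDL-800 libraries were below all controls, control 4 included, with a mean of 3.72% ± 0.676 (SD, n = 3) against 6.62% ± 0.463 (SD, n = 4). The exact two-sided permutation p of the log2 ratio was 0.0286, the smallest that 35 assignments can give, and 0.321 when adjusted over the 45 ratios of 2 of these genes. Across all genes tested, 3.93% had a ratio to Dcn that was lower in every MDL-800 library than in every control.

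Of the 45 ratios, 5 (11.1%) did not overlap between groups, and each of them held Des: it was lower relative to Lrat, Reln, Ecm1, Pdgfrb and Dcn. These ratios share Des and were picked out after their values were seen. The Des reads behind them numbered 52 to 168 per library. Acta2 stood at 2.67%, 8.13%, 7.34% and 5.78% of Dcn FPKM in controls 1 to 4 and at 2.85%, 3.82% and 3.77% in MDL-800 1 to 3, and these groups overlapped through control 1. Lrat stood at 14.01%, 13.7%, 9.91% and 5.68% of Dcn FPKM in controls 1 to 4 and at 16.6%, 13.9% and 14.6% in MDL-800 1 to 3, so that in control 4 Lrat was low even relative to Dcn.

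**Figure D5:**
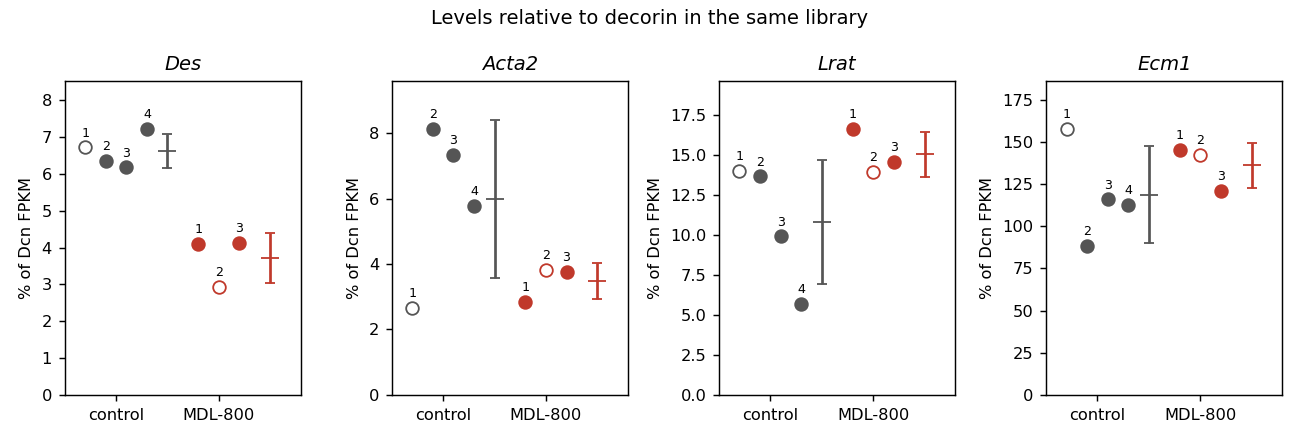
Des, Acta2, Lrat and Ecm1 as a percentage of Dcn FPKM in the same library, for control (grey) and MDL-800 (red) libraries numbered by replicate, with mean and SD; open circles are the 2 libraries with Y-linked reads. Des lies between 2.94% and 4.13% in MDL-800 and between 6.18% and 7.23% in control, while the groups overlap for the other 3 genes.

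Ligands, receptors and regulators around the 10 genes gave no passing gene either. In the TGF-beta pathway 25 of 35 genes were tested, 0 passed in either direction, and 14 lay above 0, with a median of 0.04. The TGF-beta receptor Tgfbr2 was highest in control 2 (6.57 FPKM), as Tgfb1 was, and ran from 2.29 to 4.32 FPKM in the other 6 libraries. The integrins Itgb1 and Itgb5, the most abundant of that list, had log2 fold changes of 0.12 and 0.04. Of the PDGF genes other than Pdgfrb, Pdgfa and Pdgfc were tested and did not pass (0.10 and 0.18), and the other receptor, Pdgfra, averaged 0.827 FPKM in MDL-800 (SD 0.202, n = 3) and 0.713 FPKM in control (SD 0.126, n = 4). In the list of HGF activation 0 of 9 passed (4 above 0, median -0.02), with the receptor Met at 0.18, and the proteases Tmprss6 and Hpn at 0.12 and -0.12. Of the reelin receptors and adaptors 0 of 5 passed (4 above 0, median 0.14), with the adaptor Crk at 0.18. The receptor Vldlr had the largest difference of that list, 0.68 (limma adjusted p = 0.95). It ran from 0.253 to 1.19 FPKM in control and from 0.786 to 2.65 FPKM in MDL-800. Groups did not overlap for 1 of the 5, Crkl (0.14), as was so for 6.45% of all genes tested.

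Matrix genes and relatives of Dcn and Timp1 gave no passing gene. Of 34 matrix and myofibroblast genes 20 were tested, 12 lay above 0, the median was 0.09, and 0 passed. Col1a1 and Col3a1, the fibrillar collagens that myofibroblasts lay down, had log2 fold changes of 0.18 and 0.25. Col1a1 ran from 0.525 to 2.43 FPKM in control and from 0.216 to 3.66 FPKM in MDL-800, and Col3a1 from 1.24 to 6.79 FPKM and from 1.44 to 6.81 FPKM. Fn1, fibronectin, largely a hepatocyte product in liver, was at -0.13 on the log2 scale, and Lgals1, galectin-1, at 1.28 (limma adjusted p = 0.95), the only gene of the 20 tested whose groups did not overlap, where 6.45% of all genes tested did not. The small proteoglycans had 3 of 10 tested, all above 0 and 0 passing, with Bgn and Prelp at 0.16 and 0.13. Of the TIMPs and metalloproteinases 6 of 19 were tested, 6 above 0 and 0 passing, with a median of 0.13, and Mmp19 and Mmp14 at 0.06 and 0.01. Timp3, which was not tested, was lowest in control 4, at 0.200 FPKM, and ran from 0.423 to 0.902 FPKM in the other 6 libraries. Of the 6 tested genes of this list, 0 were lowest in control 4, where their median was 79.5% of the other libraries.

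Of 22 genes of vitamin A storage and signalling 15 were tested, 7 lay above 0, the median was -0.09 and 0 passed. Rbp4, the plasma retinol carrier of hepatocytes, was at 0.11 and the esterase Ces1d at 0.33 on the log2 scale. Of the 15, only Rdh16 had an unadjusted p under 0.05. Its difference was 0.74 (limma unadjusted p = 0.0364, adjusted p = 0.95). Cyp26a1 had the largest difference, -0.91 (limma unadjusted p = 0.0559, adjusted p = 0.95). Groups overlapped for all 15. Cyp26b1 was under the limit of 1 FPKM and was not tested. Its groups did not overlap. Cyp26b1 averaged 1.44 FPKM in MDL-800 (SD 0.340, n = 3) and 0.622 FPKM in control (SD 0.262, n = 4). Of the 16 further stellate markers, 11 lay above 0, with a median of 0.23, and 0 passed. Steap4 and Cxcl12 were at -0.44 and -0.08. Portal fibroblast and mesothelial markers had 3 of 16 tested, 3 above 0 and 0 passing, of which Gas6, a secreted ligand that other liver cells make too, was the most abundant (log2 fold change 0.29), followed by Entpd2 (0.08).

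By mean FPKM over the 7 libraries, the order was Ecm1 (40.7), Dcn (32.4), Lrat (4.31), Tgfb1 (4.15), Pdgfrb (1.94), Reln (1.76), Des (1.67), Acta2 (1.58), Hgf (1.001) and Timp1 (0.964). The order held in all 7 libraries for Dcn above Lrat and Acta2 above Hgf. It held in 6 of 7 for Ecm1 above Dcn and for Tgfb1 above Pdgfrb, and in 5 of 7 for Lrat above Tgfb1 and for Pdgfrb above Reln. Reln and Des, Des and Acta2, and Hgf and Timp1 kept their order in 4 of 7 libraries, so the level of these neighbours did not differ beyond their spread.

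The tested genes most like Dcn over the 7 libraries, by Pearson's r of log2(FPKM + 1), were Colec11 (0.99), Sae1 (0.98) and Trim37 (0.98). Those most like Lrat were Zbtb14 (0.97), Myct1 (0.97) and Oit3 (0.96), those among the most like Acta2 were Ap2b1 (0.97) and Mkrn1 (0.96), and those most like Timp1 were Rab13 (0.96), Jun (0.95) and Ftl1 (0.95). These are the highest of 11393 or 11394 values each and are given as a description. Without the 2 libraries farthest from the median of the gene, Colec11, Sae1 and Trim37 were at 0.96, 0.94 and 0.95 with Dcn. Zbtb14, Myct1 and Oit3 were at 0.87, 0.89 and 0.74 with Lrat, and Ap2b1 and Mkrn1 at 0.90 and 0.90 with Acta2. With Timp1, Jun was at 0.88, while Rab13 and Ftl1 fell to 0.51 and 0.43. The libraries left out for Timp1 were MDL-800 3 and MDL-800 2.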

How the data were processed

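Gene-level FPKM values of 7 libraries, with gene lengths and coordinates, were computed by the authors and deposited as 1 table. Per the labels' protocols, liver lysates went straight into SMARTer low-input cDNA synthesis, and the sonicated cDNA into NEBNext DNA libraries, which do not mark strand. TopHat2 2.0.14, Bowtie2 2.1.0, Cufflinks 2.2.1 and build mm9 are named in the submitters' processing notes, while the tool that counted reads is not stated there. Coordinates are given as GRCm38, since 53756 of 54409 gene identifiers shared with GENCODE M21 had its chromosome and start. FPKM times length was a whole multiple of 1 step in each library (100% of values above 0 lay within 0.01 of one). The reads summed to 0.995 (control 2) to 1.28 (MDL-800 2) times the deposited denominator. No molecular identifiers were used, so read numbers are not independent molecules.

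Values were tested as log2(FPKM + 1) with limma 3.58.1 in R 4.3.3 (eBayes with a trend, two-sided), on values as deposited, keeping genes that averaged 1 FPKM or more. Single genes were also tested by exact permutation over 35 assignments. The procedure was tested on simulated data. The members, gene lists, motifs and tests were chosen with earlier results of these data known. Named genes were the 10 members, the 2 most abundant of each list (given where they bear on a member), 8 chosen by name (Pdgfra, Pdgfb, Met, Tgfbr2, Col1a1, Col3a1, Myh11 and Timp3) and the 3 most like Lrat, Dcn, Acta2 and Timp1, of which 1 is not reported here. Colec11, Tcf21, Vim, Bmp2, Notch3, Rgs4, Actg2, Tagln, the mesothelial genes and the ratios to Dcn were chosen after values were seen. So were Kcnj8, Thy1, Eln, Pi16, Cyp26a1, Cyp26b1, Rdh16, Vldlr and Crkl. Plots were drawn with matplotlib 3.10.9.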

Additional observations from a re-analysis of the deposited data

Results flagged for a closer look

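Tgfb1 in control 2, at 12.7 FPKM, lay far from the other 3 control libraries: its gap to the nearest of them was 0.838 of the range of the group, above the critical value of 0.829 for 4 samples. This was 1 of 10 control groups examined, and chance alone gives such a gap in about 5% of groups of normally distributed values. The gap was taken on FPKM and not on the log2(FPKM + 1) scale of the other tests, which draws high values in. Whether the flag holds on that scale was not tested. The 3 MDL-800 libraries of a gene were too few for this test.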

How the results depend on the processing

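The adjusted p of limma stayed above 0.05 for every one of the 10 genes wherever it was computed, with a lowest value of 0.56 (Lrat with array weights). Over all genes 0 passed (553 at an unadjusted p under 0.05), 0 with limma voom on recovered reads (755), and 0 to 1 when a library was left out (1 without control 1 and 1 without MDL-800 1). The unadjusted count ran from 192 with the replicate block to 1083 with no filter. Of 184 alternative values of the 10 genes, 173 kept their direction. That count overstates stability, because some of the 184 could not turn. A changed filter or the robust prior leaves the fold change of a gene as it was. The replicate block repeats the values without control 4. Lrat, Ecm1 and Dcn stayed above 0 and Des and Tgfb1 below 0 under each alternative run. Leaving out control 4 turned Reln (-0.040), Pdgfrb (-0.0085) and Hgf (-0.0072), leaving out MDL-800 3 turned Pdgfrb (-0.12) and Timp1 (-0.33), and leaving out control 2 turned Acta2 (0.0098). Over the libraries left out, Reln ran from -0.040 to 0.35, Pdgfrb from -0.12 to 0.37, Acta2 from -0.38 to 0.0098, Timp1 from -0.33 to 0.61 and Hgf from -0.0072 to 0.27. The libraries without Y-linked reads and without control 4, an alternative chosen after seeing the data, gave -0.13 for Reln and -0.14 for Hgf. The median of the genes tested was 0.55 with a limit of 5 FPKM, which kept only Ecm1 and Dcn, and ran from -0.0085 to 0.27 when a library was left out. It was 0.39 with voom, 0.32 with array weights, 0.31 with a pseudocount of 0.1, 0.24 in the 5 libraries without Y-linked reads and -0.13 (4 of 9 above 0) when control 4 was left out of these as well. Quantile normalization, median scaling and summed reads as denominator changed no direction. The replicate block, which uses the numbers of the labels, gave -0.040 for Reln, -0.0085 for Pdgfrb and -0.0072 for Hgf and a median of -0.0085, equal to leaving out control 4, which has no MDL-800 library of its number. Deviations of same-numbered libraries correlated at -0.59, -0.55 and 0.06, and control 1 correlated with MDL-800 2 at 0.77. Numbers 1 and 2 each set a library with Y-linked reads against a library without. These values therefore cannot decide whether the numbers pair the samples. Timp1, Acta2 and Des rest on few reads (2 to 50, 19 to 102 and 52 to 168 per library), which limits their precision.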
